A study of Mus musculus with 12 samples.

Results

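To describe where MOF sat far from genes, the peaks of MOF chromatin immunoprecipitation (ChIP-seq) from Mof+/+ visceral white adipose tissue were sorted by position. Intergenic distal peaks were those on chromosomes 1 to 19 that lay more than 3 kb from every transcript start site of the GENCODE M21 annotation and whose summit was inside no annotated gene of any type. There were 2462 of them among 19579 Mof+/+ peaks on these chromosomes (12.6%), in a list of 19773 peaks in all. The rule used position only, so strength, sequence and overlap with the other genotype were free to vary. Of the other peaks, 10903 were promoter peaks (within 1 kb of a start site), 2221 were flanking peaks (between 1 and 3 kb) and 3993 were gene-body distal peaks, which lay over 3 kb from a start site with the summit inside a gene.

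The Mof+/+ animals were wild type and the Mof+/- animals were constitutive heterozygotes, all C57BL/6 mice at 8 weeks of age on a standard diet. The labels list 12 libraries, of which 2 per genotype are MOF ChIP. Peaks were analysed here as 1 list per genotype, without replicate values, so no difference between the genotypes was tested and the 95% Wilson intervals printed below cover counting error only. The tissue was chromatin of a whole fat depot, in which adipocytes, blood and immune cells, vessel cells and fibroblasts are mixed. A peak carried by few cells and a weak peak carried by many cells cannot be told apart in it.

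MOF, also called KAT8, is the acetyltransferase that places most acetylation on lysine 16 of histone H4, a mark that loosens the packing of nucleosomes. It works in the MSL and the NSL complex. The NSL complex is known mainly from promoters of housekeeping genes, and MOF has also been mapped to enhancers in other cells. Intergenic peaks are of interest because enhancers, unannotated promoters and copies of repeats can all lie there, and they differ in sequence. CpG dinucleotides are rare in most of the mouse genome and dense in CpG islands, which mark many promoters.

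The sequences below are from GRCm38, plus strand, and each is a summit with 100 bp on either side, with every CpG in capitals. The first set shows the intergenic distal peaks at which MOF was most enriched and those that were also in the Mof+/- list. Igf2bp3 is the strongest, Chd7 and Hook2 are CpG-dense, and Gsx2 is next to a homeobox gene. Each peak carries the name of the protein-coding gene with the nearest start site.
Igf2bp3 peak, chr6:49227359-49227559: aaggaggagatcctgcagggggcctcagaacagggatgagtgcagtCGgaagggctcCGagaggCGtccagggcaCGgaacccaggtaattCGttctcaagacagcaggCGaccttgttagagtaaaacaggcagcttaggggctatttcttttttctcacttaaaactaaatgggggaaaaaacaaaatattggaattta
Chd7 peak, chr4:8648408-8648608: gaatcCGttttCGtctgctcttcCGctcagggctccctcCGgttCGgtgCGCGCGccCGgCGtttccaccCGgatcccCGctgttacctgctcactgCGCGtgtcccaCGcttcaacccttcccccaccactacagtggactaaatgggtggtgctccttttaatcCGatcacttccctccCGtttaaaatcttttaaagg
Hook2 peak, chr8:84985897-84986097: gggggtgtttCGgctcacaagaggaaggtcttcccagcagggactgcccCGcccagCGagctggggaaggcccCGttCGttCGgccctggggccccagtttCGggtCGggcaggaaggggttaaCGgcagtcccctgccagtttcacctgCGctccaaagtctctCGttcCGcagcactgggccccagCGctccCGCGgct
Gsx2 peak, chr5:75084399-75084599: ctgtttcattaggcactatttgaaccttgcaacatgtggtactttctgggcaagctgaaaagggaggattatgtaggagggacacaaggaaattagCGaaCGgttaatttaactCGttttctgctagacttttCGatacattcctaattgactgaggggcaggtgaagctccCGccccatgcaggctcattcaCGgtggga

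The second set shows peaks with few CpG. The Eya1 peak was the farthest from any start site, the Tmem121 and S1pr1 peaks were the strongest of the largest clusters, and the Rgs2 peak lay in the sequence with most genome copies.
Eya1 peak, chr1:14505264-14505464: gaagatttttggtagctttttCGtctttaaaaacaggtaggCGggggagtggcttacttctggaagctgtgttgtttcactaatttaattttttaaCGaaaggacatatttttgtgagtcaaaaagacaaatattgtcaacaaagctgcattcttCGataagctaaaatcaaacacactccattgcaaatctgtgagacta
Tmem121 peak, chr12:113245084-113245284: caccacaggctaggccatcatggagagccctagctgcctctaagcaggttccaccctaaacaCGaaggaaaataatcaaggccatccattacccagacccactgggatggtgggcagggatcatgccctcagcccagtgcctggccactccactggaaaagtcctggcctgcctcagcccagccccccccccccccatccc
S1pr1 peak, chr3:115682564-115682764: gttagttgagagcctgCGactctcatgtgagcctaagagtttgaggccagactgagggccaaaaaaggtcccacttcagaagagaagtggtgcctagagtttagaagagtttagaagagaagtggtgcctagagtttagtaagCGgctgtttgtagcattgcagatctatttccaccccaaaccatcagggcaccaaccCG
Rgs2 peak, chr1:143918652-143918852: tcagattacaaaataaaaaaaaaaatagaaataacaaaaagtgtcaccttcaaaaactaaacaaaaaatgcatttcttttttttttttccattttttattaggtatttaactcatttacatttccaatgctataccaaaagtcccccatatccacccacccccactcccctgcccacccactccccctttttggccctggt

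The third set shows peaks that span a transfer RNA (tRNA) gene, a class noticed in the data and described further on. Here capitals mark the tRNA gene as RefSeq annotates it. In the Dhx37 peak it is an aspartate tRNA gene on the minus strand, and in the Haao peak an isoleucine tRNA gene on the plus strand.
Dhx37 peak, chr5:125405526-125405726: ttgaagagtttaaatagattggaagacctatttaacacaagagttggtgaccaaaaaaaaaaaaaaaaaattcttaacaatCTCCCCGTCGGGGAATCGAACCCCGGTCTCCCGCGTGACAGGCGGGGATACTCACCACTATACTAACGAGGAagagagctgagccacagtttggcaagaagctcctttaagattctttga
Haao peak, chr17:83861845-83862045: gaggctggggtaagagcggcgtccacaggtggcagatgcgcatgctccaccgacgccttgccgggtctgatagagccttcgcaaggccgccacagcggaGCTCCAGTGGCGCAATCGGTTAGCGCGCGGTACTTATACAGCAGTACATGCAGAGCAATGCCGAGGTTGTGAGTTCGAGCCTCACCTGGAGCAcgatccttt

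The letters show how wide the range of CpG was. The sequence of the Chd7 peak held 17 CpG and that of the Hook2 peak held 15. The Igf2bp3 and Gsx2 peaks held 6 each. The Tmem121 peak held 1 CpG although its GC content was 61.2%, and the Rgs2 peak held 0 at 34.8% GC.

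Intergenic distal peaks were as strong as the other peaks away from promoters and weaker than promoter peaks. Fold enrichment, the ratio of fragments at the summit to the local input background after 1 was added to each, had a median of 3.12 (interquartile range 2.88 to 3.67) and ran from 2.1 to 10.2. The median was 3.1 in gene-body distal and in flanking peaks and 3.76 (3.1 to 4.57) in promoter peaks. The interquartile ranges of all classes overlapped.

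Their width had a median of 523 bp (364 to 831), between 266 and 7419 bp, against 488 bp in gene-body distal peaks and 740 bp in promoter peaks. Solving the fold enrichment and p-value of each peak for fragments gave a median of 15 at the summit (13 to 17) over a median background of 3.68, so a single peak rested on few fragments. Of the 2462 peaks, 1117 had the lowest background of the list, 3.52 fragments, and 14 had more than 2 times that. Each peak named below with a fold enrichment of at least 6.42 had the lowest background, so those peaks were ordered by their fragments.

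**Figure D1:**
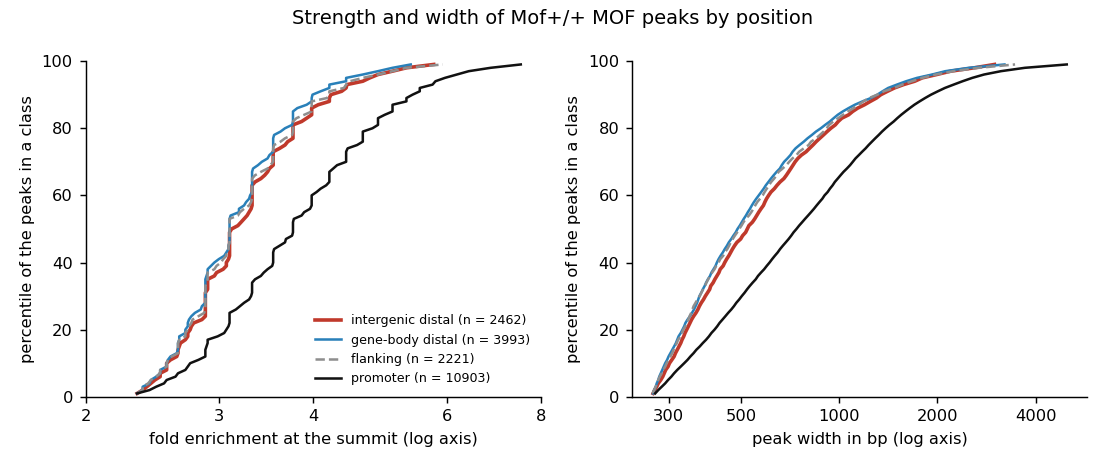
Percentiles of fold enrichment at the summit (left, log axis) and of peak width in bp (right, log axis) for Mof+/+ peaks on chromosomes 1 to 19 in 4 position classes, 1 line per class. The red line of the 2462 intergenic distal peaks runs beside those of gene-body distal and flanking peaks, and promoter peaks (median fold enrichment 3.76, median width 740 bp) lie to the right of it.

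Peaks on either side of the 3 kb limit were alike in strength and in CpG islands. Members 3 to 4 kb from a start site (n = 237) had a median fold enrichment of 3.1 and held a CpG island in 19% of cases. Peaks outside genes at 2 to 3 kb (n = 242), just too close, had 3.17 and 21.9%. They overlapped a Mof+/- peak in 11 cases (4.55%, interval 2.56 to 7.95), against 2 of the 237 (0.844%, 0.232 to 3.02) just inside, and these intervals overlap. Peaks with a q-value between 0.01 and 0.1 made up 815 of the members, with a median fold enrichment of 2.71. The 1647 with a q-value of at most 0.01 had 3.48.

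Annotation other than GENCODE put some of these peaks near genes. In the RefSeq annotation 106 peaks (4.31%) held a transcript start, 208 (8.45%) lay within 1 kb of one and 427 (17.3%) had their summit inside a gene. Of the 208, 128 were near starts of long non-coding RNAs only and 36 were near the start of a messenger RNA. A CpG island was found in 49.5% of the 208 and in 16.3% of the remaining peaks, and median fold enrichment was 3.35 and 3.1. By both annotations 1885 peaks (76.6%) were outside genes and over 3 kb from a start.

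Transfer RNA genes accounted for a small set of these. tRNA genes are short, are transcribed by RNA polymerase III from promoter elements inside the gene, and are listed in RefSeq but not among the GENCODE genes used for the rule. The set was chosen after its values were seen. A RefSeq tRNA gene overlapped 30 intergenic distal peaks (1.22%), against 0.347% of all peaks on chromosomes 1 to 19 (68 of 19579), 26 promoter peaks, 11 flanking peaks and 1 gene-body distal peak. Of 214 tRNA genes in intergenic distal sequence, 37 (17.3%) carried such a peak. These 214 were 55.4% of the 386 tRNA genes on chromosomes 1 to 19, of which 90 (23.3%) carried a Mof+/+ peak of any class. The share at intergenic tRNA genes was thus no higher than at tRNA genes in general. Of the 30 peaks, 27 (90%) held a CpG island by the definition given below.

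The tRNA peaks had a median fold enrichment of 3.48, from 2.31 to 6.14, and a median width of 848 bp. The strongest were 9.78 kb from Prss16, with a serine tRNA gene at its edge and a fold enrichment of 6.14, and 6.11 kb from Psma3, with a lysine tRNA gene and 4.83. The Ctc1 peak at chr11:69039832-69041609 spanned 3 tRNA genes, for proline, aspartate and glycine. The 2 peaks nearest Fcgr1 spanned an asparagine and a glutamine tRNA gene, with 4.43 and 4.26. The summit 31-mers were single-copy throughout in 15 of the 30. Their median number of copies was 1 in every tRNA peak but that near Sesn2, where it was 2. The others held some repeated 31-mers, whose reads can come from another copy.

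Distance to start sites fell off steeply. From the peak edge to the nearest start site of any gene, the quartiles were 5884, 10740 and 20943 bp. Between 3 and 10 kb there were 1165 peaks (47.3%), between 10 and 30 kb 975 (39.6%), between 30 and 100 kb 308 (12.5%), and beyond 100 kb 14 (0.569%).

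Intergenic distal sequence covers 1121 Mb of 2396 Mb (46.8%), and these peaks were 2.2 per Mb in it, against 8.17 peaks of any class per Mb overall. Per Mb of intergenic distal sequence there were 5.11 peaks at 3 to 10 kb, 2.79 at 10 to 30 kb, 0.816 at 30 to 100 kb and 0.0839 beyond 100 kb. The median distance of 370746 windows spaced over the same sequence was 28.6 kb. These peaks were thus denser near start sites, and the density also fell between the bins past 10 kb.

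Strength hardly changed with distance. The median fold enrichment was 3.17, 3.1, 3.13 and 3.34 in the 4 distance bins, and the share with a CpG island was 19.2%, 19.5%, 16.9% and 28.6%, the last over only 14 peaks.

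The 5 farthest peaks lay well away from genes of any type, and the protein-coding gene that names each was mostly farther still. The Eya1 peak was 194 kb from any start, had a fold enrichment of 5.09 and was also in the Mof+/- list (Eya1 encodes a transcriptional coactivator and phosphatase of organ development). The peak named for St3gal1, a sialyltransferase gene, was 183 kb from any start and 233 kb from that of St3gal1, with 3.36. The peak named for the transcription factor gene Maf was 173 kb from any start and 295 kb from Maf, with 2.66. The one named for Klf4, also a transcription factor gene, was at 169 kb and 292 kb, with 3.32. The last, named for Lpin1, which encodes a phosphatidate phosphatase of fat synthesis, was at 151 kb and 178 kb, had 4.2 and held a CpG island.

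Relative to the nearest protein-coding start, 1400 peaks (56.9%) were upstream and 1062 (43.1%) downstream, at a median of 19274 bp from summit to start. In 1252 cases (50.9%) the nearest start of any gene type was a protein-coding one. Within 5 kb of the end of a protein-coding gene there were 530 peaks (21.5%).

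**Figure D2:**
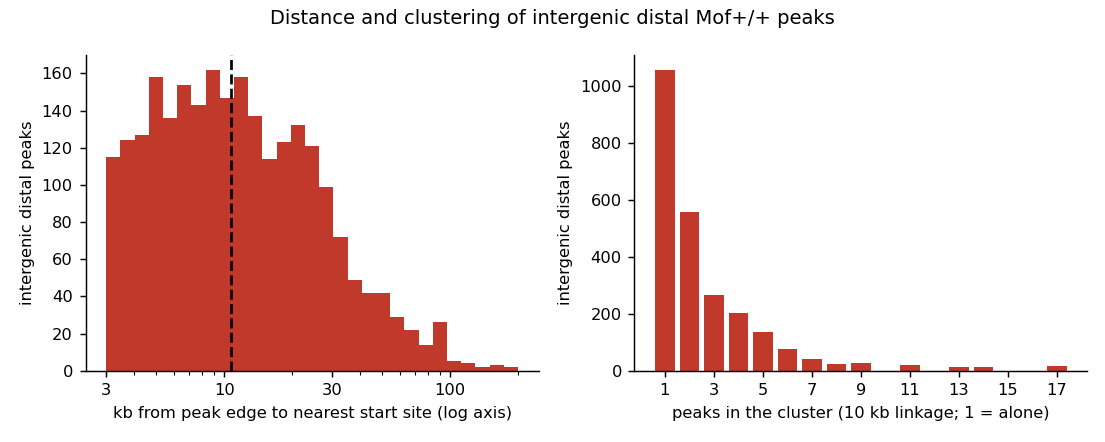
Left, number of intergenic distal peaks by distance in kb from peak edge to nearest start site (log axis), with the median of 10740 bp dashed. Right, number of these peaks by the size of the cluster they belong to, where 1 is a peak with no other within 10 kb; 1059 peaks stood alone and the largest cluster held 17.

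Most intergenic distal peaks were not CpG islands, and the minority that were differed in strength, width and presence in the Mof+/- list. A CpG island was called inside a peak where 200 bp had at least 50% GC and an observed to expected CpG ratio of at least 0.6. It was found in 470 peaks (19.1%, interval 17.6 to 20.7), against 49.3% of all peaks on chromosomes 1 to 19, 76.6% of promoter peaks, 17.4% of flanking and 11% of gene-body distal peaks. The share was 4.14% with a stricter island of 500 bp, 55% GC and a ratio of 0.65, and 33.7% among peaks with q-values up to 0.001. The 470 had a median fold enrichment of 3.71 and a median width of 830 bp, and the other 1992 had 3.1 and 477 bp. The share rose with width, from 8.12% in the quartile of narrowest peaks to 38.1% in that of the widest.

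In the summit window, the summit with 150 bp on either side, median GC was 48.8% and the median observed to expected CpG ratio was 0.228. The same windows in promoter peaks had 60.5% and 0.71, in gene-body distal peaks 48.5% and 0.22. Windows spaced every 3010 bp over intergenic distal sequence had 40.5% and 0.135. The summits were thus richer in GC and CpG than intergenic distal sequence at large, whose windows lay farther from start sites, and lower in CpG than promoter peaks. The sequence flanking each peak was not measured. With at least 50% GC and a ratio of at least 0.6 over the whole window, 126 peaks (5.12%) were CpG-rich, against 57.4% of promoter peaks and 0.354% of the windows. The share was 2.92% in the quartile of narrowest peaks and 8.6% in that of the widest. Chromatin was cut partly by CviKI-1, which cuts at RGCY, and the summit windows held a median of 7 such sites against 4 in the intergenic windows. The part of the cutting in the GC of the peaks was not tested.

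**Figure D3:**
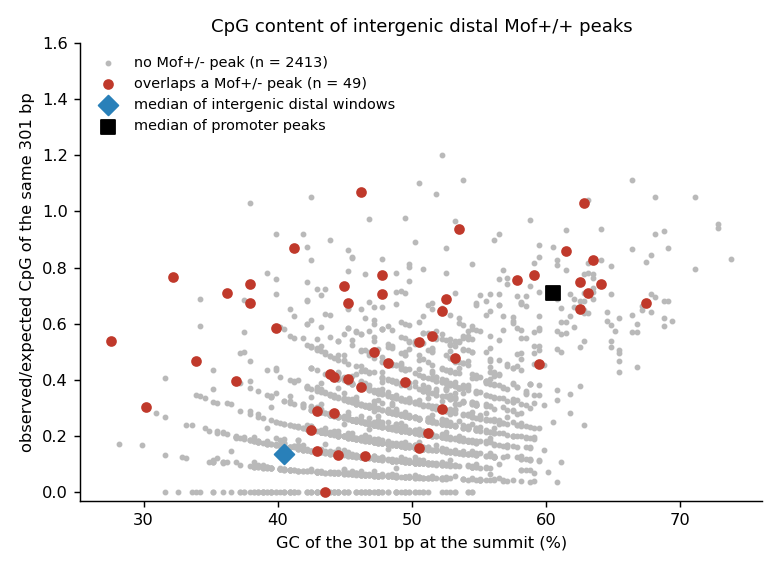
Each point is 1 intergenic distal peak, by GC content (%) and observed to expected CpG ratio of its summit window (150 bp on either side). Red points are the 49 peaks that overlap a Mof+/- peak, grey points the other 2413, the diamond is the median of windows in intergenic distal sequence and the square the median of promoter peaks; red points lie higher (median ratio 0.555 against 0.224) at similar GC.

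The peaks had less repeat sequence than intergenic distal sequence at large. Repeats masked in the reference took a mean of 20.4% of the summit window, against 39.3% in the intergenic windows, 18.3% in gene-body distal peaks and 9.26% in promoter peaks. Of the 2462 peaks, 285 (11.6%) were masked over at least 50% of the window, compared with 32.8% of intergenic windows, and 525 (21.3%) held no masked base.

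Sequence with several copies in the genome was rare at summits. The 31-mers of the summit window had a median of more than 1 copy in 46 peaks (1.87%), against 1.54% of all peaks, while 697 peaks (28.3%) held at least 1 repeated 31-mer. The 46 were 413 bp wide at the median with a fold enrichment of 3.1. A Mof+/- peak overlapped 0 of them, with an upper limit of 7.71%, which includes the 2.44% of all peaks. The most copied summits were those near Rgs2, with a median of 2404 copies and a fold enrichment of 3.32, Ms4a4b with 1414 and 4.2, and Rps6ka1 with 1338 and 2.88. A summit near Bach2 had 520 copies and 3.32, and another near Ms4a4b had 252 and 3.76. Reads of such sequence can come from another copy, so these positions are uncertain.

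Few intergenic distal peaks were also in the Mof+/- list. It held 731 peaks, 712 of them on chromosomes 1 to 19. A Mof+/- peak overlapped 49 intergenic distal peaks (1.99%, interval 1.51 to 2.62), against 2.44% of all Mof+/+ peaks. The share was 3.16% of promoter peaks, 2.75% of flanking peaks and 0.576% of gene-body distal peaks. The interval of the intergenic distal share included that of the whole list. With q-values up to 0.001 the intergenic distal share was 4.21%, and with 50% of both peaks in common it was 0.65%, while the whole list was not recomputed for these settings. By the same rule 95 Mof+/- peaks were intergenic distal, and 71 of them overlapped a Mof+/+ peak of any class.

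The 49 shared peaks were stronger, wider and higher in CpG than the rest. Their median fold enrichment was 3.83 (3.32 to 4.82) against 3.1, their median width 1194 bp against 520 bp and their median CpG ratio 0.555 against 0.224, while GC was alike (47.2% and 48.8%). A CpG island was in 28 of the 49 (57.1%) and in 18.3% of the other 2413. The Mof+/- list gave a median of 4.37 at the 49, higher than the Mof+/+ value in 33 of them, each over its own background. Such a value exists only where the shorter Mof+/- list had a peak. There were 59 Mof+/- peaks at the 49, and the highest was taken where several overlapped. A higher value thus does not show that MOF was kept or gained. By width, 33 of the 49 were in the quartile of widest peaks, where 5.36% overlapped, and the quartile of narrowest peaks had 0.812%. A wider peak is more easily overlapped, and its part in the difference was not tested.

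The strongest intergenic distal peaks were in this shared set. The Igf2bp3 peak, chr6:49226359-49228485, had a fold enrichment of 10.2 from 45 fragments in the Mof+/+ list and 8.15 from 27 in the Mof+/- list. It lies 12.5 kb upstream of Igf2bp3, which encodes an RNA-binding protein of fetal tissue. The Cbx8 peak, chr11:119052929-119059312, had 8.41 and 7.67 and was 6384 bp wide (Cbx8 is a Polycomb subunit). The Chd7 peak, chr4:8646752-8649938, had 7.74 and 5.21, and held a RefSeq start (Chd7 is a chromatin remodeller).

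Most of the next shared peaks had a lower fold enrichment in the Mof+/- list, which was computed over its own background. Peaks 7.06 kb from Mknk2 and 27.2 kb from Rasgrf1 had 6.64 in the Mof+/+ list, and 4.29 and 4.62 in the Mof+/- list (a kinase that phosphorylates a translation factor and an activator of Ras). The Hook2 peak had 6.42 and 4.6, the Prss16 peak 6.14 and 4.2, and the Rbx1 peak 5.69 and 4.07. The Eya1 peak had 5.09 and 4.6, the Psma3 peak 4.83 and 3.99, and the Chd2 peak 4.6 and 3.04. The Gsx2 peak was alike in both, at 4.64 and 4.66.

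A region upstream of Nfe2l3, on the far side of Mir148a, held 4 of the shared peaks. The widest of all members, 7419 bp at chr6:51176463-51183881, had 7.08 and 7.36 there. It was 86 kb from Mir148a, which encodes a microRNA, and 251 kb from Nfe2l3, which encodes a transcription factor. Its neighbour at chr6:51170829-51173720 had 4.82 from 34 fragments and 6.43 from 25, the higher fold enrichment being that of Mof+/-.

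Other peaks among the strongest intergenic distal ones overlapped no Mof+/- peak. Peaks near Lfng (a glycosyltransferase that modifies Notch), Gtf3c1 (a subunit of TFIIIC, which loads RNA polymerase III), Rph3al (a Rab effector) and Lef1 (a transcription factor of Wnt signalling) each had 7.08 from 31 fragments. The Rph3al peak lies 207 bp from a RefSeq start of that gene. The Chst3 peak (a chondroitin sulfotransferase) had 6.86 from 30 fragments, held a RefSeq start and was masked over 53.8% of its summit window.

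Homeobox genes, which encode transcription factors of body patterning, were nearest to 12 of the 49 (24.5%), 37 of the other 2413 (1.53%) and made up 0.942% of protein-coding genes. They included Evx1 (3 peaks), Evx2, Gsx2, Hoxb13, Nkx2-5, Otp, Otx1, Pax3 and Pou3f2. The first shares are of peaks and the last is of genes, and the intergenic sequence near homeobox genes was not taken into account. The homeobox count was made after the values had been seen and is a description. Transfer RNA genes overlapped 4 of the 49 (8.16%), near Prss16, Psma3, Fcgr1 and Commd3. They overlapped 1.22% of all intergenic distal peaks and 0.347% of all Mof+/+ peaks on chromosomes 1 to 19.

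Peaks lay close to one another. Another intergenic distal peak was within 10 kb of 1403 of them (57%), and 1059 stood alone. Any Mof+/+ peak was within 10 kb of 1782 (72.4%), against 65.8% of all peaks on chromosomes 1 to 19. There were 477 clusters at this distance, 280 of them pairs. Clusters of at least 5 held 372 peaks (15.1%) in 57 places. In them, fold enrichment had a median of 3.32 and 16.9% of peaks held a CpG island, and lone peaks had 3.1 and 20.7%. A Mof+/- peak overlapped 4 of the 372 (1.08%, interval 0.419 to 2.73) and 22 of the lone peaks (2.08%), and the first interval includes the 2.44% of all peaks. All 4 were the shared peaks of the Nfe2l3 region, in the same cluster. The interval counts each peak as separate, so it is too narrow for peaks that share a place.

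The largest cluster was next to the immunoglobulin heavy chain genes. It held 17 peaks over 31.7 kb at chr12:113220072-113251783, with fold enrichments of 2.34 to 4.87 and a median of 3.76. Its median GC was 54.5% and 0 of its peaks held a CpG island. The nearest gene was Igha, which encodes the constant region of immunoglobulin A, 3.05 kb away, and Tmem121 was the nearest protein-coding gene by annotation at 30.5 kb. The sequence past Igha is known to hold the enhancers at the end of the heavy chain locus, which act in B cells.

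In the other large clusters between 0 and 3 peaks held a CpG island, which 19.1% of all intergenic distal peaks did. The cluster past the end of S1pr1, a receptor for sphingosine-1-phosphate that guides lymphocytes, held 14 peaks over 48.9 kb at chr3:115661351-115710238, from 194 bp off the gene, with fold enrichments of 2.26 to 5.22 and 1 CpG island. Between Ugcg, the glucosylceramide synthase, and Susd1, 13 peaks lay over 34.9 kb at chr4:59252410-59287292, around the lincRNA Gm12596, with 2.51 to 4.2 and 0 islands.

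A cluster of 11 peaks over 23.3 kb lay past Pced1b at chr15:97448774-97472081, with fold enrichments of 2.34 to 5.97 and 2 CpG islands, and another of 11 over 29 kb was upstream of Ptma, which encodes prothymosin alpha, at chr1:86487204-86516224, with 2.44 to 4.94 and 3 CpG islands. In each of the 5 clusters 0 peaks overlapped a Mof+/- peak, against 2.44% of all peaks, and these numbers are too small to set apart from that share.

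**Figure D4:**
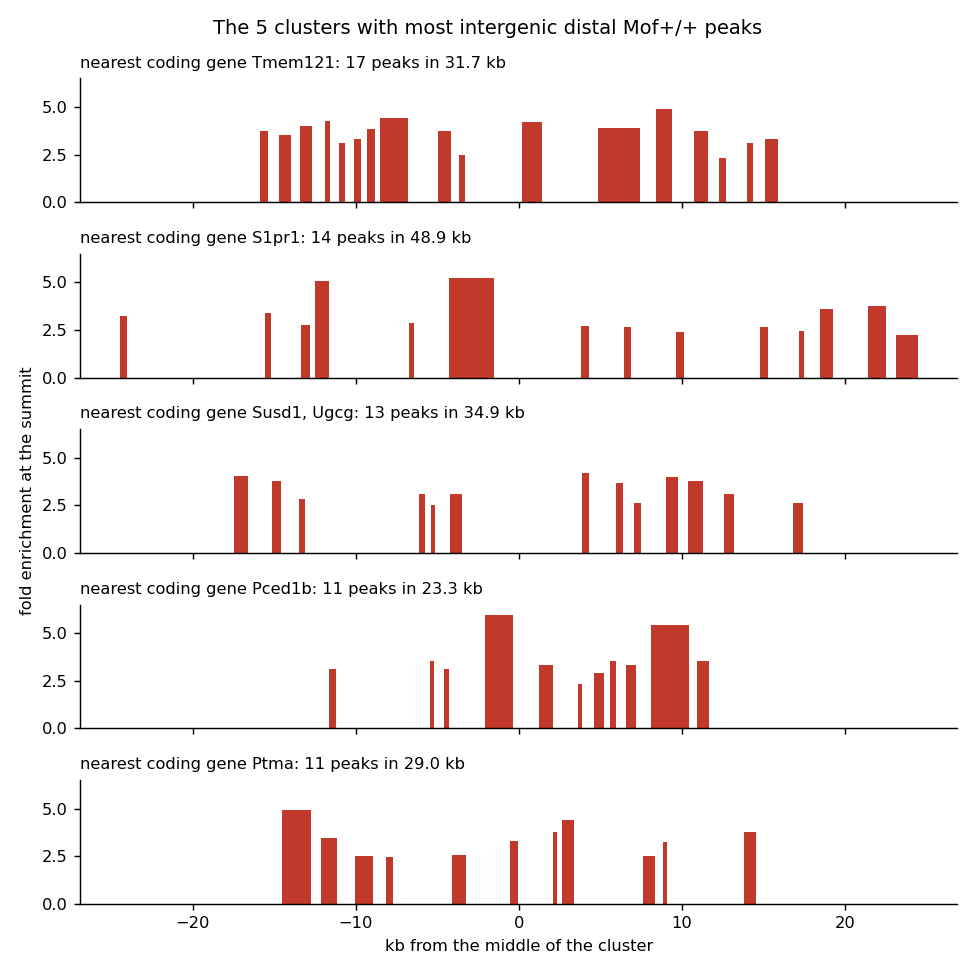
The 5 clusters with most intergenic distal peaks, 1 panel each, with position in kb from the middle of the cluster and fold enrichment at the summit as bar height; bar width is peak width. The cluster near Tmem121, beside Igha, holds 17 peaks with a median of 3.76, and no bar in the 5 panels exceeds 5.97.

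The members were shared out over 1242 nearest protein-coding genes, 5.97% of 20807 on these chromosomes. Of them, 753 had 1 peak and 101 had at least 5, together 757 peaks. A Mof+/+ promoter peak was at the gene itself in 946 of the 1242 (76.2%, interval 73.7 to 78.5), against 42.7% of all protein-coding genes, and in 88 of the 101 (87.1%). The share was thus higher among genes near these peaks than among all genes.

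The genes with most intergenic distal peaks had from 12 to 19. Foxo1, a transcription factor downstream of insulin signalling, had 19, between 5.59 and 353 kb from its start. S1pr1 had 18, Tmem121 17 and Btg1, which restrains cell division, 16. Pced1b had 15. Zfp217, a zinc finger protein, Rap1b, a small GTPase, and Bach2, a transcription factor of lymphocytes, had 13 each, and Ptma and Chd2 12 each, as did Lbh, which comes after them by its highest fold enrichment.

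Counts were also set against the intergenic distal sequence nearest to each gene. This gave 204 peaks per Mb near Chd2, 202 near Ptma, 163 near Tmem121, 117 near Bach2, 73.8 near Foxo1 and 43 near Btg1, where all 2462 peaks over all intergenic distal sequence came to 2.2. These genes were picked for their counts, so the densities are a description. In this group only Tmem121 lacked a promoter peak of its own.

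To see which cell types these genes belong to, lists of marker genes were counted, beside 5.97% of all protein-coding genes and 2.2 peaks per Mb. B cell genes were nearest to 31 peaks, 7 of 23 genes (30.4%), and T cell genes to 42 peaks, 9 of 25 genes (36%), at 21.2 and 15.1 peaks per Mb. Bach2 (13) and Cd83 (11) held most of the B cell peaks, and Ccr7 and Ets1 (10 each) a large part of the T cell peaks. The densities of both lists thus rest largely on these genes. Of the immediate early genes, which respond to stimuli within minutes, 12 of 25 (48%) had a peak, 27 peaks in all at 7.98 per Mb. Adipocyte genes had 7 peaks at 4 of 26 genes (15.4%), 4.87 per Mb. Hepatocyte, mesothelial and neuron genes had 0 of 20, 0 of 15 and 0 of 19, which leaves upper limits of 16.1%, 20.4% and 16.8%, all above the 5.97% of all genes. The intervals of the B cell list (15.6 to 50.9%) and of the adipocyte list (6.15 to 33.5%) overlapped.

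In each of the lymphocyte lists, the 3 genes with most peaks were transcription factors and surface receptors. Of the B cell list, Bach2 had 13 peaks, Cd83 11 and Cxcr5, which guides B cells to follicles, 3. Of the T cell list, Ccr7, which guides T cells to lymph nodes, had 10 at 208 per Mb, with fold enrichments of 3.07 to 4.87. Ets1 had 10 and Runx3 6.

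Among the immediate early genes, Btg2 had 7 peaks at 234 per Mb, with fold enrichments up to 5.45, Fos 6 and Egr3 3. Of these lists, 24 of 25 immediate early genes, 21 of 23 B cell genes, 18 of 25 T cell genes and 15 of 26 adipocyte genes had a promoter peak of their own, against 42.7% of all protein-coding genes. The other lists were below that share, with 5 of 20 endothelial, 5 of 20 fibroblast and progenitor, 3 of 19 neuron, 2 of 20 macrophage, 2 of 15 mesothelial and 0 of 20 hepatocyte genes.

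Among the adipocyte genes, Scd1, the stearoyl-CoA desaturase of fat synthesis, had 4 with fold enrichments of 2.88 to 4.87. Adipoq, which encodes adiponectin, had 1 at 5.51 kb with 2.47, the fatty acid transporter Cd36 1 at 57.5 kb with 3.32, and Acsl1, which activates fatty acids, 1 with 2.51.

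Macrophage genes had 7 peaks at 4 of 20 genes (20%), or 10.1 per Mb, against 5.97% of all protein-coding genes and 2.2 per Mb, with 2 each near Adgre1, Fcgr1 and Spi1 and 1 near Ccr2. Those near Fcgr1 spanned tRNA genes, as given above. Fibroblast and adipocyte progenitor genes had 4 peaks at 3 of 20 (15%), or 1.58 per Mb, near Pdgfra (4.65), Ly6a and Dcn. Endothelial genes had 3 at 2 of 20 (10%), or 2.03 per Mb, near Fli1 and Pecam1.

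**Figure D5:**
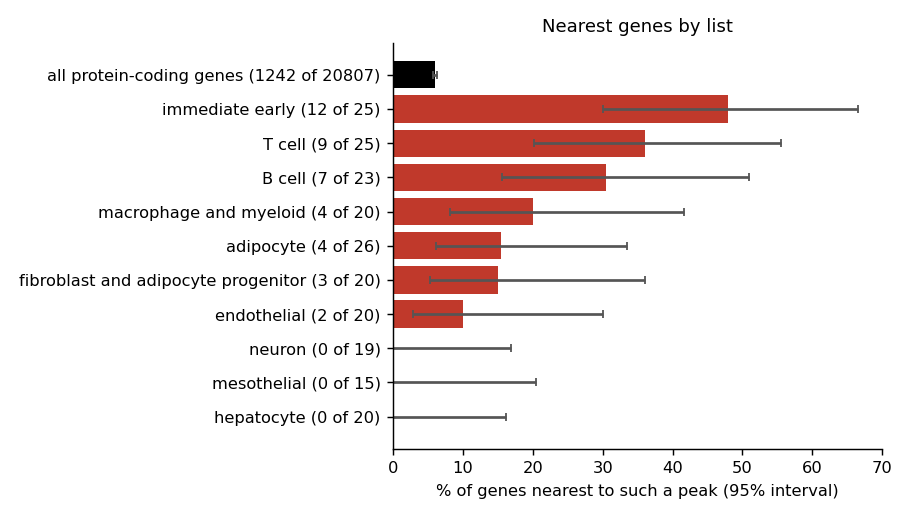
Share of the genes of each list (%) that are the nearest protein-coding gene of at least 1 intergenic distal peak, with 95% Wilson intervals and the numbers of genes beside each name. The bars of immediate early (48%), T cell (36%) and B cell (30.4%) genes are the longest, all protein-coding genes (black) stand at 5.97%, and 3 lists are at 0.

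Known regulatory elements were also searched for such peaks. RefSeq functional elements, which include VISTA enhancers tested in mouse embryos, overlapped 24 intergenic distal peaks (0.975%), against 0.654% of all peaks. Of 504 elements in intergenic distal sequence, 23 (4.56%) had such a peak, and 14 of 242 VISTA enhancers did. The share for intergenic sequence of like length was not measured, so whether the peaks favour or avoid such elements was not tested. The following examples were chosen after their values were seen. The VISTA enhancer mm1445, active in the embryonic nervous system, spanned a pair of peaks near Btg2 with fold enrichments of 5.45 and 4.83. The heart enhancer mm260 lay under a Fos peak with 4.65, and the heart enhancer mm1645 under an Nkx2-5 peak with 3.39, which was the one element peak also in the Mof+/- list. A regulatory region of Mcl1, a survival gene of the Bcl2 family, held peaks of 6.19 and 3.54.

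Short motifs were searched in the summit window on both strands. A match means only that the letters are present. CAGCTG, an E-box, was in 19.1% of intergenic distal peaks and 9.62% of intergenic windows. The ETS motif CCGGAAGT was in 0.731% (18 peaks) and 0.156%, the PU.1 motif GAGGAAGT in 3.49% and 1.83%, and the EBF motif CCCNNGGGA in 5.36% and 2.43%. The RUNX motif TGTGGTT was in 9.22% and 6.79%, the AP-1 motif TGANTCA in 9.22% and 8.95%, and the GATA motif AGATAA in 13.2% and 20.3%.

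Peaks had more GC than windows, so motifs were also counted in windows with GC between 44.9% and 52.8%, the middle of the peaks (1297 peaks and 95156 windows). The gap then narrowed for CAGCTG (19.6% and 15.8%), EBF (5.09% and 4.37%), PU.1 (3.32% and 2.53%) and GATA (11.8% and 12.7%), and for the rare ETS motif (0.771% and 0.272%). It was wider for RUNX (10.7% and 6.19%) and for AP-1 (9.95% and 8.73%). The CTCF core AGNNGGCGC went from 2.64% and 0.583% to 1.39% and 1.21%, and the Sp/KLF box GGGGCGGGG from 2.07% and 0.347% to 1.7% and 0.698%. The direct repeat bound by PPAR and RXR, the regulators of adipocyte genes, was in 1 peak (0.0406%) and in 0.0391% of windows, and in 0% and 0.0799% within the GC range.

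Several other motifs were less frequent in peaks than in windows before GC was matched. The IRF motif GAAANNGAA was in 9.75% and 12.4%, the STAT motif TTCNNNGAA in 8.61% and 11.9%, the octamer ATGCAAAT in 2.19% and 2.99% and the C/EBP motif TTGCNNAA in 12.1% and 14.5%. Within the GC range these were 8.71% and 8.19%, 7.86% and 8.51%, 1.77% and 1.8%, and 12.6% and 11.2%. The TEAD motif GGAATG (14.2% and 18.6% within the range), the NF-Y motif CCAATCA (3.16% and 4.54%) and the YY1 motif AAGATGGC (2.31% and 5.59%) stayed lower in peaks.

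All but the CRE among the rest were higher in peaks. Within the GC range the E-box CACGTG was in 5.01% of peaks and 3.64% of windows, the NF-kB motif GGGNNTTCC in 4.93% and 4.52%, and the MEF2 motif CTAAAAATA in 0.771% and 0.248%. The NRF1 motif GCGCNTGCG was in 0.308% and 0.184% and the CRE TGACGTCA in 0.231% and 0.285%, both rare. Runs of GAGAGAGA were in 7.79% and 7.55%, and runs of CACACACA in 11.9% and 8.98%. In all these counts only GC was matched. Masked repeats took a mean of 20.4% of the summit window over all intergenic distal peaks and 39.3% of all intergenic windows. Their part in the motif shares was not tested.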

How the data were processed

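Each peak list was deposited as made by the authors with MACS2 (version 2.1.1.20160309.3, per the labels) from reads mapped to GRCm38, with input DNA as control and q-values of up to 0.1. Summit values in the deposited lists are the fold enrichment, a ratio, and the authors' −log10 p-value, −log10 q-value (used as a score) and summit offset. The integer score of the format was not used. Neither pooling of replicates nor depth per library is stated, and signal tracks and the H3 and input libraries were not analysed here. The methods describe merging of peaks within 1000 bp, which was tried as an alternative.

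Positions and classes were computed with Python 3.11.15, pandas 2.3.3 and numpy 2.4.6, from GENCODE M21 genes, the RefSeq annotation and the RefSeq copy of GRCm38. Fragments and background were solved from fold enrichment and p-value to a whole number (tolerance 0.001). Repeats are soft-masked bases, and copies of 31-mers were counted on both strands. Peaks within 10 kb edge to edge formed a cluster. No test across peaks was made, since peaks are items of 1 list. The scripts were tested on simulated peaks.

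Named regions were the 10 strongest (11 with a tie), the 15 strongest that overlapped a Mof+/- peak, the 5 largest clusters, the 5 farthest from start sites and the 5 most copied. Named genes were their nearest protein-coding genes, the 10 with most peaks, and all listed marker genes with a peak, or the 3 with most in lists with over 6. A region that this rule selects is not reported here. The members, the marker gene lists and the motifs were chosen with earlier results of these data known.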

Additional observations from a re-analysis of the deposited data

Results flagged for a closer look

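Chromosome X was outside the rule. There, 16 of the 165 Mof+/+ peaks were over 3 kb from any start site with the summit in no gene, a share below the 12.6% of chromosomes 1 to 19, with a median fold enrichment of 3.32, and 0 of the 4 Mof+/- peaks were. They were singled out as peaks that the comparisons did not use, and their share is no higher than on the other chromosomes.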

How the results depend on the processing

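Of 70 alternatives over 7 results, 53 left the value within the limits set (1.5 times for counts and medians, the 95% Wilson interval for shares) and 17 did not. The number of intergenic distal peaks went from 2462 to 1297 with a distance of 10 kb and to 902 with q-values up to 0.001. The share that overlapped a Mof+/- peak went from 1.99% to 4.21% under that limit and to 0.65% when 50% of both peaks had to overlap. The share with a CpG island went from 19.1% to 23.1% with protein-coding genes and starts only, 24.2% and 33.7% with q-values up to 0.01 and 0.001, 21.8% with peaks within 1000 bp merged, and 4.14% with an island of 500 bp, 55% GC and a ratio of 0.65. The share with another member within 10 kb went from 57% to 61.1% with protein-coding genes only, 48% and 36.3% under the same limits, 41.3% when merged, 49.6% at 5 kb and 72.2% at 50 kb. The share of nearest genes with a promoter peak went from 76.2% to 73.1% with q-values up to 0.001 and 78.7% with a promoter window of 3 kb. Median fold enrichment stayed between 3.1 and 3.83 and the masked share between 17.1% and 21%. Stricter q-values and merging leave fewer peaks by construction, and the other causes were not tested.

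No paired analysis was possible because the files used here are 1 peak list per genotype without replicate columns, although the labels give 2 MOF ChIP libraries per genotype, and for the same reason no replicate was left out in turn. Single peaks rested on a median of 15 fragments, which limits the precision of every fold enrichment. The tissue was not sorted into cell types. The nearest gene by position is not shown to be a target.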
